A study of Rattus norvegicus with 6 samples.

Results

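Fatty acid oxidation and the carnitine shuttle were followed through 39 named genes in H9c2 cells, a myoblast line derived from embryonic rat heart, by RNA sequencing of 6 libraries. The members were taken by name from the deposited gene table, which holds 26126 entries, and 38 of the 39 names were found there. Acaa1a was not found under that name, so no expression value is given for it. A filter on low counts left 37 members among 14488 tested entries, and the member it removed was Ppargc1a. Counts were scaled to CPM, the count divided by the library's scaled total in units of 1e6 counts, and compared with edgeR's quasi-likelihood test.

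The libraries form 2 groups of 3. One group received an adenovirus labelled adPERK, which the series describes as PERK overexpression, and the other received an adenovirus labelled control. PERK is the endoplasmic reticulum kinase encoded by Eif2ak3. Both groups are labelled as having gone through ischemia-reperfusion in culture, and no normoxic or virus-free group was among the samples used here. Per the labels' protocols, cells were put in an acidic buffer of pH 6.2 with 5.6 mM 2-deoxyglucose and 20 mM lactate. The chamber was flushed for 30 min with 95% nitrogen and 5% carbon dioxide and then sealed for a further 1.5 to 3.5 h. The reperfusion step is not described further in the labels. The cells had been grown in high glucose medium with 10% serum. Separate cultures are not stated for the replicates, so every p-value here is set against variation among 3 libraries a group, and that variation could be purely technical.

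Total counts were 89798433 to 119087414 in the adPERK-labelled libraries and 77923398 to 111052659 in the control libraries. Control replicate 3 had 19287 entries above 0, against 15377 to 16685 in the other 5 libraries. Eif2ak3 stood at 26.5, 26.5 and 25.9 CPM in adPERK replicates 1 to 3 and at 26.4, 26.9 and 23.95 CPM in control replicates 1 to 3 (log2 fold change 0.03, SE 0.06, edgeR adjusted p = 0.887). The targeted gene therefore does not check the labels, and each direction below rests on the labels alone. Of 14 markers of striated muscle and heart, 10 were tested. Myog, a myogenic transcription factor, fell (399.5 ± 9.25 CPM in the adPERK-labelled and 486 ± 10.2 CPM in the control libraries, SD, n = 3 each; log2 fold change -0.28, edgeR adjusted p = 0.0137). It was the only marker that passed edgeR's test, and Tnnt2 averaged 173 CPM in the adPERK-labelled and 169 CPM in the control libraries. Of the adult heart markers, Nppa was at 0 in every library, and Myh6, Ryr2 and Myl2 did not exceed 0.18 CPM in any library. Myh7, another of them, had 6, 12 and 11 counts in adPERK replicates 1 to 3. In control replicates 1 to 3 Myh7 had 21, 0 and 46 counts, and it did not pass (log2 fold change -1.44, edgeR adjusted p = 0.7475). The summed level of the 10 tested markers was 720.0 to 744 CPM in the adPERK-labelled libraries and 786 to 825 CPM in the control libraries. Without Myog the other 9 summed to 312 to 342 CPM in the adPERK-labelled and 312 to 332 CPM in the control libraries, which overlap. Gata4 and Mef2c, transcription factors of heart and muscle, lay higher without overlap and did not pass (log2 fold changes 0.39 and 0.43, edgeR adjusted p = 0.482 and 0.268). The part of the Myog difference in the results below was not tested. Of the markers of other cell types, 3 of 7 for epithelium, 3 of 9 for leukocytes, 1 of 7 for endothelium, 4 of 7 for adipocytes and 1 of 6 for hepatocytes were tested, and none passed edgeR's test. Their sums were 53.1 to 54.2 CPM (epithelium), 9.97 to 11.0 CPM (leukocytes) and 0.638 to 0.877 CPM (endothelium, from Tek alone) in the adPERK-labelled libraries, against 48.55 to 52.8, 8.25 to 12.1 and 1.29 to 1.56 CPM in the control libraries. Tek had an unadjusted edgeR p of 0.0078. Besides Myog, the authors' deposited table calls Tek (log2 fold change -0.82, adjusted p = 0.0251), Ptprc (-5.62, 0.0268) and Myh6 (-4.98, 0.0304), all lower. Ptprc and Myh6 were not tested by edgeR and had 0 counts in every adPERK-labelled library. In control replicates 1 to 3 Ptprc had 0, 17 and 5 counts and Myh6 had 0, 0 and 14. Summed adipocyte and hepatocyte markers did not exceed 1.72 and 0.208 CPM, and Ucp1, Fabp4 and Retn were at 0 in all 6 libraries.

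Long-chain fatty acids are activated to acyl-CoA by acyl-CoA synthetases. Carnitine palmitoyltransferase 1 (CPT1) on the outer mitochondrial membrane then moves the acyl group onto carnitine, the translocase Slc25a20 carries acylcarnitine inward, and CPT2 restores acyl-CoA in the matrix. Beta-oxidation shortens it in rounds of dehydrogenation, hydration, a second dehydrogenation and thiolysis, and its electrons reach the respiratory chain through the electron transfer flavoprotein. CPT1 is the rate-controlling step and is inhibited by malonyl-CoA. The heart draws most of its energy from this pathway, which needs oxygen and so stalls in ischemia, and the nuclear receptor PPAR alpha with the coactivator PGC-1 alpha drives its genes.

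Of the 37 tested members, Cpt1a fell in the adPERK-labelled libraries and the other 36 did not pass the test. Calls made up 0.421% of all tested entries, with 0.311% higher and 0.11% lower. The median log2 fold change of the 37 members was 0.0049, against -0.0045 for all tested entries, and 20 members lay above 0 and 17 below, where 48.7% of all tested entries lay above 0. At an unadjusted p under 0.05 there were 7 members, or 18.9%, against 11.2% of all tested entries. These were Cpt1a and Acads, which were lower, and Acsl1, Acsl3, Acsl4, Acadsb and Decr1, which were higher. The groups did not overlap for 10 members, or 27.0%, against 18.2% of all tested entries. Of the 10, 8 were higher and 2 lower in the adPERK-labelled libraries, against 9.66% and 8.54% of all tested entries. For 34 of the 37 the 95% interval of the fold change lay inside 1.5-fold in either direction, and for 18 it lay inside 1.2-fold. The 3 exceptions were Ehhadh, Ppara and Ucp3, which had few counts.

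**Figure D1:**
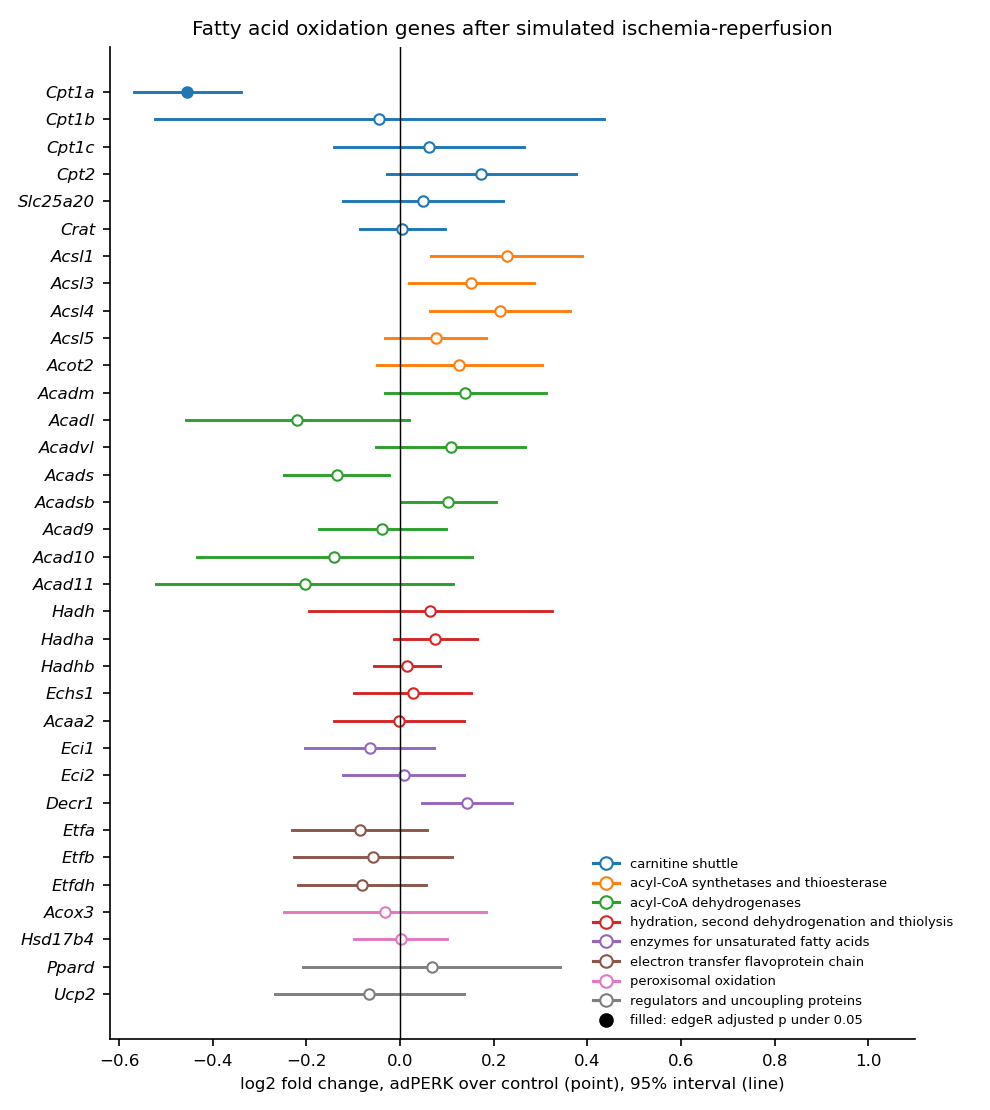
Log2 fold changes (adPERK over control) of 34 tested members in order of their role, with 95% intervals from the edgeR fit as lines. Cpt1a, the only filled point, is at -0.45, and the other 33 points lie between -0.22 and 0.23; Ehhadh, Ppara and Ucp3 are left out because their intervals are wider than the axis.

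Cpt1a encodes the CPT1 isoform of liver and many other tissues. It stood at 29.5, 32.8 and 30.9 CPM in adPERK replicates 1 to 3 and at 41.9, 43.7 and 42.15 CPM in control replicates 1 to 3. All 3 adPERK-labelled libraries lay below all 3 control libraries, and the gap between the groups was wider than the range within either. The mean was 31.1 ± 1.65 CPM in the adPERK-labelled libraries and 42.6 ± 0.993 CPM in the control libraries (SD, n = 3 each). The log2 fold change was -0.45 (SE 0.05, 95% interval -0.57 to -0.34), a level 27.0% lower, with edgeR adjusted p = 0.0137. Ordered by p-value, Cpt1a ranked 13 among the 14488 tested entries. The authors' deposited table gives Cpt1a a log2 fold change of -0.45 (SE 0.08) with adjusted p = 9.18e-06. In bulk RNA, fewer cells that express a gene and less of its RNA per cell cannot be told apart. The call ended without adPERK replicate 1 (edgeR adjusted p = 0.0717), adPERK replicate 3 (0.0759) or control replicate 2 (0.0614), where the log2 fold change was -0.42, -0.45 and -0.44.

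The window around the annotated start of Cpt1a is shown because this gene carries the change. Those of Acsl3 and Acsl4 are shown beside it as 2 examples, picked after their values were seen, of the 8 members whose groups did not overlap in the other direction. The sequences come from RefSeq (build GRCr8) and run from 250 bases before the start to 50 after it. They are chr1:209995910-209996209 on the plus strand for Cpt1a, chr9:87563351-87563650 on the plus strand for Acsl3 and chrX:110803212-110803511 on the minus strand for Acsl4. Capitals mark matches on either strand to AGGTCA (a site bound by nuclear receptors), TGACGT (the core of a cAMP response element), TGATGNAA (a CEBP-ATF element), GGGCGG (a GC box), CCAAT and CACGTG (an E-box).
Cpt1a: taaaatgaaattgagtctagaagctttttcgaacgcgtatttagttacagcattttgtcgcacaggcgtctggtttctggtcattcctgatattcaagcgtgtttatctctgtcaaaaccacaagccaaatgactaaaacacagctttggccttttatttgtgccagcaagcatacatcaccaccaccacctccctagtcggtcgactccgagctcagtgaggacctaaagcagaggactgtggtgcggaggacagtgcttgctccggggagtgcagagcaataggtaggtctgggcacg
Acsl3: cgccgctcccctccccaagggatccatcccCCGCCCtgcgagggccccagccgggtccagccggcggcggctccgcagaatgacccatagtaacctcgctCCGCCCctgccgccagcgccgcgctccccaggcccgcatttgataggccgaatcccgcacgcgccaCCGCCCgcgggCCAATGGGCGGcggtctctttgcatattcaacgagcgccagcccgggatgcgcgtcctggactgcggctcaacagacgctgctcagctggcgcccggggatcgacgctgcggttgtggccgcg
Acsl4: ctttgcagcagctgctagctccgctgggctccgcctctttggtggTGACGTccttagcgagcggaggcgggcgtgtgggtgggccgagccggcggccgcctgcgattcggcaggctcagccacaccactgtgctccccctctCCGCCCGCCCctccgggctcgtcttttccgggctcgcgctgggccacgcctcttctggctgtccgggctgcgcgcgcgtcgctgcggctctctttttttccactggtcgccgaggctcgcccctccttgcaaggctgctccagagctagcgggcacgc

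The Cpt1a window had 48.3% G and C and 12 CpG sites, and none of these motifs was found in it. The Acsl3 window had 72.7% G and C and 39 CpG sites, with 4 matches to the GC box and 1 to CCAAT, which adjoins a GC box. The Acsl4 window had 70.7% G and C and 33 CpG sites, with 2 overlapping GC box matches and 1 match to TGACGT. These 2 windows do not stand for all such members: that of Acsl1 had 40.7% G and C, 4 CpG sites, 1 match to CCAAT and 0 to the GC box, and that of Cpt2 had 66.7% G and C, 31 CpG sites and 3 GC box matches. None of the motifs was found in 4 of the 33 member windows (Acad9, Acsl5, Cpt1a and Ucp2), or 12.1%, and in 28.2% of all windows. The median window had 59.7% G and C over the 33 members that were matched, Acaa1a among them, and 51.7% over all 33469 windows. GC box letters were present in 69.7% of the member windows, TGACGT in 21.2%, AGGTCA in 24.2%, CCAAT in 33.3%, TGATGNAA in 3.03% and CACGTG in 0 of 33. Over all windows these shares were 33.1% for the GC box, 7.94% for TGACGT, 16.2% for AGGTCA, 37.5% for CCAAT, 3.98% for TGATGNAA and 6.42% for CACGTG. A match describes letters in a window and does not show that a factor binds there.

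The other 5 shuttle members did not pass the test. Cpt1b encodes the isoform typical of muscle. Its level was 3.27, 3.48 and 3.41 CPM in adPERK replicates 1 to 3 and 2.62, 3.22 and 4.66 CPM in control replicates 1 to 3 (log2 fold change -0.04, 95% interval -0.52 to 0.43). The adPERK-labelled libraries all fell inside the range of the control libraries, whose lowest and highest values were far apart. Without control replicate 3 the log2 fold change of Cpt1b was 0.22 and did not pass either. Cpt1c, the isoform known mainly from brain, averaged 16.35 ± 1.48 CPM in the adPERK-labelled and 15.7 ± 0.783 CPM in the control libraries (SD, n = 3 each).

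Cpt2, on the matrix side, stood at 14.99, 14.9 and 17.4 CPM in adPERK replicates 1 to 3 and 13.3, 14.25 and 14.4 CPM in control replicates 1 to 3. Its groups did not overlap, with the adPERK-labelled libraries higher, but the difference did not pass (log2 fold change 0.17, SE 0.09, edgeR adjusted p = 0.509). Slc25a20, the carnitine-acylcarnitine translocase, was at 37.4, 36.8 and 42.1 CPM in adPERK replicates and 35.2, 36.1 and 41.1 CPM in control replicates. The third library of each group was the highest for Slc25a20, and the groups overlapped (log2 fold change 0.05, SE 0.07). Crat, which transfers acetyl groups to carnitine, was at 81.4, 82.0 and 80.6 CPM in adPERK replicates and 80.75, 80.0 and 82.4 CPM in control replicates. Its 6 libraries lay close together, and the 95% interval ran from -0.09 to 0.10 on the log2 scale.

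**Figure D2:**
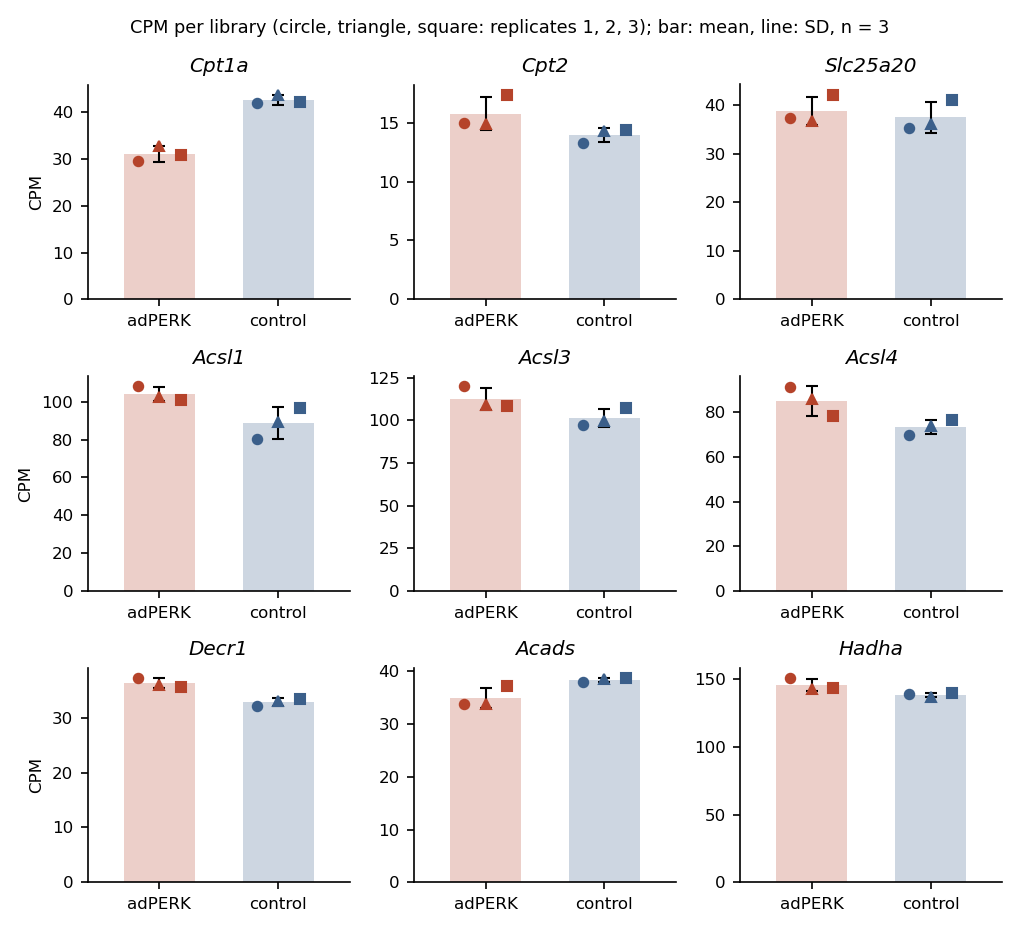
CPM of 9 members in each library, with adPERK-labelled libraries left and control libraries right; bars are means and lines SD (n = 3). Cpt1a is lower in all 3 adPERK-labelled libraries, Acads is lower by less, and in the panels of Cpt2, Acsl1, Acsl3, Acsl4, Decr1 and Hadha all adPERK-labelled points lie above the control points.

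Whether Cpt1a moved apart from other shuttle genes was tested on the log2 ratio of counts within each library, which does not depend on library scaling. Counts are not scaled for gene length, so a ratio compares libraries and not the amounts of the genes. Against Cpt2 the log2 ratio was 0.98, 1.14 and 0.83 in adPERK replicates 1 to 3 and 1.66, 1.62 and 1.55 in control replicates 1 to 3. The groups did not overlap, and the means differed by -0.63 (two-sided exact permutation p = 0.1, the smallest that 3 against 3 allows). Because Cpt1a lay lower and Cpt2 higher without overlap, this ratio could not overlap, and its p adds nothing to those levels. Against Cpt1b the ratio was 3.18, 3.24 and 3.18 in adPERK replicates and 4.00, 3.76 and 3.18 in control replicates, with a difference of -0.45 (two-sided exact permutation p = 0.3). Control replicate 3 fell among the adPERK-labelled libraries in that ratio, in the library where Cpt1b was highest. Ratios to Slc25a20, Crat and Cpt1c, added after values were seen, differed by -0.50, -0.46 and -0.52 without overlap (two-sided exact permutation p = 0.1 each). All these ratios use the same Cpt1a counts and are not independent of its fall.

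**Figure D3:**
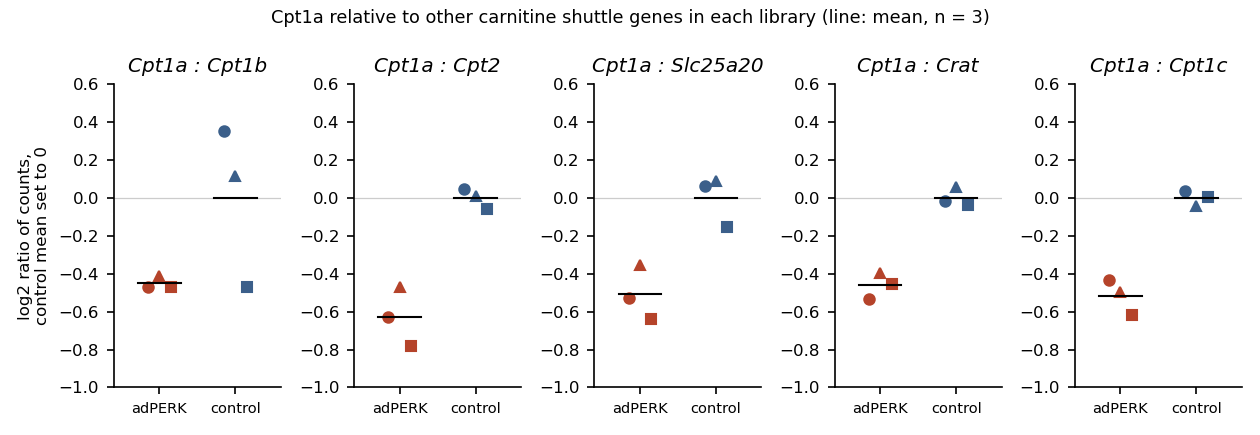
Log2 ratio of Cpt1a counts to those of 5 other shuttle genes in each library, shifted so that the control mean is 0; symbols are replicates 1 to 3 and lines are means (n = 3). The adPERK-labelled libraries lie below all control libraries for Cpt2, Slc25a20, Crat and Cpt1c, while control replicate 3 overlaps them for Cpt1b.

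Long-chain acyl-CoA synthetases activate fatty acids for oxidation or for lipid synthesis. The 4 such genes among the members all lay above 0, between 0.08 and 0.23 on the log2 scale. Of these 0 passed edgeR's test, and DESeq2 called 2. An unadjusted edgeR p under 0.05 was reached by 3 of the 4 (75.0%), against 11.2% of all tested entries. Acsl6, a synthetase outside the member list, had 0 counts in every adPERK-labelled library and was not tested by edgeR. It had 0, 10 and 38 counts in control replicates 1 to 3. Acsl1, the main synthetase of heart and adipose tissue, was at 108, 103 and 101 CPM in adPERK replicates 1 to 3 and 80.3, 89.2 and 96.9 CPM in control replicates 1 to 3. The groups did not overlap, with a log2 fold change of 0.23 (SE 0.07, edgeR adjusted p = 0.265). In the authors' deposited table Acsl1 has 0.23 (SE 0.07) with adjusted p = 0.0294. Acsl1 was thus called there and by DESeq2 run on the same counts (adjusted p = 0.0333), and not by edgeR or limma voom. The authors' deposited table calls 2 members, Cpt1a and Acsl1, and 2.27% of the entries it gives an adjusted p. DESeq2 called 3 members, Cpt1a, Acsl1 and Acsl4, and 3.9% of its entries.

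Acsl4, which prefers arachidonic acid, was at 91.3, 85.8 and 78.2 CPM in adPERK replicates and 69.95, 73.7 and 76.6 CPM in control replicates. The lowest adPERK-labelled library, replicate 3, was close to the highest control library (log2 fold change 0.21, SE 0.07, edgeR adjusted p = 0.26; DESeq2 adjusted p = 0.0451). Acsl3, found at the endoplasmic reticulum and lipid droplets, was at 120, 109 and 108 CPM in adPERK replicates and 97.0, 99.4 and 107 CPM in control replicates. These groups did not overlap, but only just, and the test did not pass (log2 fold change 0.15, SE 0.06, edgeR adjusted p = 0.374). Acsl5, found in mitochondria and endoplasmic reticulum, was at 157, 151 and 164 CPM in adPERK replicates and 143, 150.2 and 155 CPM in control replicates, and its groups overlapped. Control replicate 3 was the highest control library for all 4 genes, and the summed level of the 4 was 448 to 476 CPM in the adPERK-labelled and 390 to 435 CPM in the control libraries. Acot2, a mitochondrial thioesterase that splits acyl-CoA again, was at 14.1, 14.4 and 14.7 CPM in adPERK replicates against 12.9, 13.9 and 12.7 CPM in control replicates without overlap (log2 fold change 0.13, edgeR adjusted p = 0.5845).

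The acyl-CoA dehydrogenases, which start each round of oxidation, had 3 members above 0 and 5 below, with 0 past edgeR's test, 2 at an unadjusted p under 0.05 and 0 called by DESeq2. Acads, specific for short chains, was at 33.8, 33.7 and 37.1 CPM in adPERK replicates and 37.9, 38.4 and 38.6 CPM in control replicates. The groups did not overlap, though adPERK replicate 3 came close to the control libraries (log2 fold change -0.14, SE 0.05, edgeR adjusted p = 0.347). Acadsb, which acts on short branched chains from isoleucine, was at 28.2, 27.3 and 27.5 CPM in adPERK replicates against 25.6, 25.4 and 26.3 CPM in control replicates. Its groups did not overlap either, in the other direction (log2 fold change 0.10, SE 0.04, edgeR adjusted p = 0.434). Acad9, also an assembly factor of complex I, was at 38.6, 37.4 and 35.95 CPM in adPERK replicates and 38.8, 40.8 and 35.3 CPM in control replicates, with overlapping groups.

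Among the chain-length specific dehydrogenases, Acadm (medium chains) and Acadvl (very long chains) had log2 fold changes of 0.14 and 0.11, and Acadl (long chains) of -0.22, with edgeR adjusted p of 0.528, 0.61 and 0.477. Their groups overlapped. Acad10 and Acad11, at means of 8.56 and 8.13 CPM in the adPERK-labelled and 9.43 and 9.37 CPM in the control libraries, had log2 fold changes of -0.14 and -0.20.

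For the later steps, 5 genes were tested, of which 0 passed edgeR's test, 0 had an unadjusted p under 0.05 and 0 were called by DESeq2. Over all tested entries 11.2% had such an unadjusted p, and DESeq2 called 3.9% of its entries. Hadha and Hadhb encode the subunits of the mitochondrial trifunctional protein, which carries out the last 3 reactions on long chains. Hadha was at 151, 142 and 143 CPM in adPERK replicates and 139, 136 and 139 CPM in control replicates, without overlap (log2 fold change 0.08, SE 0.04, edgeR adjusted p = 0.509). Hadhb, at 205, 201 and 205 CPM in adPERK replicates against 201, 204 and 200.0 CPM in control replicates, overlapped, and its 95% interval was -0.06 to 0.08. The 95% interval of Hadha was -0.01 to 0.16. Hadh, Echs1 and Acaa2, which serve shorter chains, had log2 fold changes of 0.06, 0.03 and -0.0029.

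Auxiliary enzymes reshape double bonds of unsaturated fatty acids. Decr1, a dienoyl-CoA reductase, was at 37.3, 35.9 and 35.6 CPM in adPERK replicates and 32.1, 33.1 and 33.4 CPM in control replicates. The groups did not overlap and the spread within each was small, but the difference did not pass over all entries (log2 fold change 0.14, SE 0.04, edgeR adjusted p = 0.238). Decr1 had the lowest adjusted p of the 36 members that did not pass. Eci2 and Eci1, isomerases that move a double bond, had log2 fold changes of 0.0080 and -0.07, and Eci2 was at 57.7, 55.6 and 54.35 CPM in adPERK replicates and 53.9, 53.1 and 59.7 CPM in control replicates.

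The electron transfer flavoprotein takes electrons from the dehydrogenases, and Etfdh passes them to ubiquinone. Its subunit genes Etfa and Etfb and Etfdh all lay slightly below 0, at -0.09, -0.06 and -0.08, with edgeR adjusted p of 0.664, 0.824 and 0.664 and overlapping groups. Etfa was at 56.8, 57.8 and 52.1 CPM in adPERK replicates and 62.4, 54.8 and 59.8 CPM in control replicates. Etfb was at 38.1, 39.2 and 32.7 CPM in adPERK replicates and 38.3, 40.1 and 36.1 CPM in control replicates. Summed over the 19 mitochondrial oxidation enzymes from the dehydrogenases to Etfdh, the level was 830 to 861 CPM in the adPERK-labelled libraries and 840 to 842 CPM in the control libraries, with the control libraries inside the range of the others.

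Peroxisomes shorten very long and branched chains. Hsd17b4, the bifunctional enzyme for branched chains, was at 47.2, 45.3 and 46.1 CPM in adPERK replicates and 47.0, 44.2 and 47.2 CPM in control replicates, with a log2 fold change of 0.0017 (95% interval -0.10 to 0.10). Acox3, an oxidase of branched chains, was at 12.9, 12.6 and 14.3 CPM in adPERK replicates and 12.4, 14.6 and 13.8 CPM in control replicates, with overlapping groups. Ehhadh, the bifunctional enzyme for straight chains and a PPAR alpha target, was barely detected, with 42, 41 and 17 counts in adPERK replicates and 36, 40 and 18 in control replicates.

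Of the regulators, Ppara and Ppargc1a were near the detection limit. Ppara, which encodes PPAR alpha, had 29, 24 and 17 counts in adPERK replicates and 41, 13 and 28 counts in control replicates, and its 95% interval of -1.88 to 1.13 does not exclude a change of 2-fold in either direction at this depth. Ppara is overlapped in the RefSeq table by Cdpf1, which had a mean of 421 counts. Ppargc1a, which encodes PGC-1 alpha, had 7, 0 and 0 counts in adPERK replicates and 0, 0 and 2 counts in control replicates, all below a limit of 18 counts, so no fold change is given. Low counts gathered near multiples of 6, with 449 to 986 entries per library at 6 or 7 counts and 155 to 439 at 8 or 9. At 12 or 13 counts there were 269 to 567 entries, more than at 8 or 9 in every library. At 14 or 15 counts there were 113 to 262. The limit of 18 is 3 such steps, and independent fragments behind a count may be fewer than the count.

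Ppard, the PPAR expressed in most tissues, was at 11.2, 13.8 and 11.1 CPM in adPERK replicates and 10.3, 12.2 and 11.96 CPM in control replicates, with overlapping groups (log2 fold change 0.07, SE 0.12). Ucp2, an inner membrane carrier of the uncoupling protein family, was at 19.2, 22.0 and 23.0 CPM in adPERK replicates and 23.4, 20.3 and 23.5 CPM in control replicates (log2 fold change -0.07, SE 0.09). Ucp3, the family member of skeletal muscle and heart and a PPAR target, had 0, 18 and 12 counts in adPERK replicates and 0, 23 and 7 counts in control replicates, so it was at or near the limit in both groups.

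**Figure D4:**
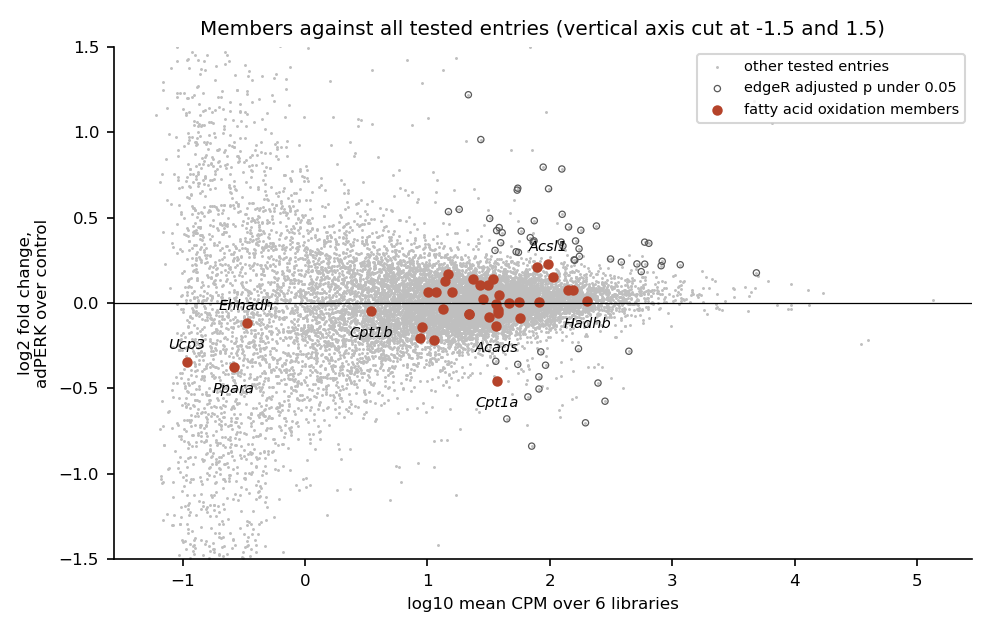
Log2 fold change (adPERK over control) against log10 mean CPM for the 14488 tested entries (grey), the 61 entries past the test (open circles; those beyond the axis are not drawn) and the 37 tested members (red). Cpt1a, at -0.45, lies below the cloud of entries of similar level, while the other members lie within it, with Ehhadh, Ppara and Ucp3 among the low-count entries.

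A second list held 77 other genes of fatty acid uptake, carnitine supply, malonyl-CoA control, peroxisomal and ketone body steps and PPAR signalling. Of these 74 were in the table and 62 were tested, of which 0 passed edgeR's test and 10 had an unadjusted p under 0.05 (16.1%, against 11.2% of all tested entries). DESeq2 called 4, all higher, Aldh9a1, Lpl, Txnip and Vldlr, where it called 3.9% of its entries. Limma voom called 3 of these, without Lpl, and 0.759% of all tested entries. The median log2 fold change of the 62 was 0.04. Aldh9a1, an aldehyde dehydrogenase of carnitine synthesis, was at 203, 208 and 203 CPM in adPERK replicates and 182, 178 and 169 CPM in control replicates (log2 fold change 0.22, SE 0.04, edgeR adjusted p = 0.0669). Vldlr, a receptor for triglyceride-rich lipoproteins, was at 359, 349 and 353 CPM in adPERK replicates and 317, 319 and 322 CPM in control replicates (log2 fold change 0.15, SE 0.03, edgeR adjusted p = 0.0848). Both genes separated the groups without overlap. With Txnip and Bdh1 they are the 4 listed genes with an unadjusted p under 0.01, a level that 4.02% of all tested entries reached.

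Txnip, a thioredoxin-binding protein responsive to glucose, averaged 69.9 ± 1.26 CPM in the adPERK-labelled and 59.9 ± 1.71 CPM in the control libraries (log2 fold change 0.22, edgeR adjusted p = 0.0992), and Bdh1, a ketone body dehydrogenase, averaged 15.9 ± 0.475 CPM in the adPERK-labelled and 13.3 ± 0.377 CPM in the control libraries (0.26, edgeR adjusted p = 0.216). The authors' deposited table calls Aldh9a1 (adjusted p = 0.0099), Vldlr (0.0293) and Txnip (0.00239), all higher. It also calls Acsl6 (log2 fold change -6.8, adjusted p = 0.00795) and Esrrg (-6.41, 0.0125), both lower in the adPERK-labelled libraries. Acsl6 had 0, 10 and 38 counts and Esrrg 10, 0 and 29 counts in control replicates 1 to 3. Both had 0 counts in every adPERK-labelled library, and the filter on low counts removed them before edgeR's test. Control replicate 3, the highest library for both genes, also had the most entries above 0 (19287). The part of that library in these 2 calls was not tested. Of the genes that make or remove malonyl-CoA, the inhibitor of CPT1, Acaca averaged 56.3 ± 2.17 CPM in the adPERK-labelled and 55.0 ± 2.43 CPM in the control libraries (log2 fold change 0.03, edgeR adjusted p = 0.861). Mlycd, the decarboxylase that removes malonyl-CoA, averaged 10.3 ± 0.883 CPM in the adPERK-labelled and 8.415 ± 1.27 CPM in the control libraries, with overlapping groups (0.29, edgeR adjusted p = 0.46). Acacb, the acetyl-CoA carboxylase form of muscle, stayed at or below 0.2005 CPM in every library. Pdk4, a usual PPAR alpha target, stayed at or below 0.1155 CPM and was not tested.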

How the data were processed

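The members and gene lists were chosen with earlier results of these data known. Per the labels' protocols, TruSeq libraries were built from 1 ug total RNA. The deposited table gives whole-number counts per gene in 6 columns, matched to the samples by name. Bowtie 0.12.2 is named in the submitters' processing notes, without its role, as is mm9, a mouse build, although the cells are rat; which genome the counts rest on could not be settled here. The counting program, the rat annotation and the use of strand: not given in the sources used here. Per the file headers the deposited table also holds normalized signal, log2 fold changes with standard errors, a test score, and p-values with adjusted p-values, made by the authors. The signal is the count divided by 1 size factor per library and was not used in tests. Another table, with 6 per-sample columns that no label names, was left out.

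Counts were filtered with filterByExpr (minimum count 10), scaled by TMM and tested with glmQLFTest in edgeR 4.0.16 (R 4.3.3), adPERK against control, with Benjamini-Hochberg adjustment over all 14488 entries at 0.05. CPM uses TMM-scaled totals. Each SE is the absolute log2 fold change over the square root of F. Means have SD over 3 libraries. Intervals cover the spread between libraries only, with counting noise included. The limit of 18 counts was set from the steps seen in low counts and is not an estimate of error. Members are given per library when they passed, had an unadjusted p under 0.05, did not overlap between groups at 5 CPM or more, were among the 2 most abundant of their role, or were Cpt1a, Cpt1b, Cpt2, Slc25a20, Ppara or Ppargc1a; Ehhadh and Ucp3 were added after their low counts were seen. Other pathway genes are named when their unadjusted p was under 0.01. Lpl, Acaca, Mlycd, Acacb, Pdk4, Acsl6 and Esrrg were added after their values were seen. Alternatives used DESeq2 1.42.0, limma 3.58.1 and the settings named in the closing section. The steps were tested on simulated data, with changes placed in genes of 5 CPM or more. There the edgeR test recovered 5 of 50 genes changed 1.2-fold and 37 of 50 changed 1.5-fold. Of its 155 calls there, 17 were false, a larger share than the 0.05 that the adjustment aims at. The simulated counts were drawn without the steps of 6 seen in low counts, so these rates may not hold for the data. RefSeq gene names and overlaps come from a GRCr8 table, in which 38 members were matched; 5 of them are overlapped by another counted gene, Acsl5, Acadvl, Acad11, Acox3 and Ppara.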

Additional observations from a re-analysis of the deposited data

How the results depend on the processing

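Cpt1a kept its sign in all 16 settings, with log2 fold changes of -0.50 to -0.42, and passed in 12 of them. The replicate numbers did not pair the libraries, since correlations of same-numbered deviations were -0.06, 0.01 and 0.03. With the replicate block Cpt1a was at -0.46 (edgeR adjusted p = 0.0539), 0 members passed and 9 entries passed in all. The ratio differences of -0.63 to Cpt2 and -0.45 to Cpt1b cannot change with the block. The mean of paired differences equals the difference of the group means. The number of entries tested differed between settings. Limma voom gave 110 calls, library totals only 33 and edgeR's robust option 132, each from 14488 entries. DESeq2 called 372 of the 9539 entries to which it gave an adjusted p. There were 94 calls among 21822 entries without a filter and 93 among 12418 after dividing counts by 6. With 1 library left out the calls ran from 12 of 14929 entries (without adPERK replicate 1) to 38 of 14880 (without control replicate 1). Members past the test numbered 3 with DESeq2 (Cpt1a, Acsl1, Acsl4) and 0 to 1 with 1 library left out. The other pathway list gave 4 with DESeq2, 3 with limma voom, 2 with edgeR's robust option and 1 with counts divided by 6. Acsl1 was 0.23 and Acsl4 0.21 with DESeq2. Fold changes were followed across settings for 24 members; the other 13 tested members were not. Among the 24, signs turned for 11 near 0, none of which passed in any setting. With library totals only, Crat was -0.012, Hadhb -0.0028, Eci2 -0.0089 and Hsd17b4 -0.0151. Cpt1b was 0.049 with limma voom, and Hsd17b4 was -0.0005 with limma voom and with the stricter filter, -0.0002 with DESeq2 and with DESeq2 size factors, and -0.0022 with counts divided by 6. With 1 library left out, Cpt1b ranged from -0.22 to 0.22, Slc25a20 from -0.014 to 0.12, Crat from -0.0060 to 0.017, Acad9 from -0.092 to 0.0077, Eci2 from -0.026 to 0.063, Etfb from -0.11 to 0.019, Acox3 from -0.094 to 0.018, Hsd17b4 from -0.030 to 0.018, Ppard from -0.045 to 0.12 and Ucp2 from -0.13 to 0.0095. The causes were not tested. With 1 library left out the ratio to Cpt2 ran from -0.70 to -0.55 and that to Cpt1b from -0.69 to -0.27, both negative throughout. Ppara had no value in 2 settings that removed it. Depth limits Ehhadh, Ppara, Ppargc1a and Ucp3.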
